A study of Mus musculus with 4 samples.

Results

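N6-methyladenosine (m6A) peaks that lay in coding sequence and inside a single stretch of exon were examined in mouse embryonic stem cells. From each of 4 deposited peak lists, every peak that the authors class as coding sequence (CDS), made of 1 exon block and placed on chromosomes 1 to 19, X, Y or the mitochondrial genome, was taken. These were 13199 of 46417 listed peaks, in 3648 genes. Peaks of the 4 lists whose blocks shared at least 1 bp were joined into 4995 regions, of 15487 regions formed by all peaks. Each library was made from total RNA of C57BL/6N embryonic stem cells, broken to fragments and enriched with an antibody against m6A (MeRIP-seq). The wild-type group had 2 libraries and the Mettl5-/- group 2, called knockout 1 and 2 here. Neither the origin of the 2 libraries of a genotype, from one culture or clone or from several, nor the way the knockout was made is given in the labels, and p-values therefore measure the spread between these samples, which may be technical. RNA levels were not measured, so more methylation and more transcript cannot be told apart.

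m6A in messenger RNA is placed by a nuclear writer complex built around Mettl3 and Mettl14, mostly within a short motif. It is found above all near stop codons, in 3' untranslated regions (UTRs) and in long internal exons, where reader proteins can recognise it. Mettl5 is a different enzyme, which with its partner Trmt112 methylates an adenosine of 18S ribosomal RNA. A coding peak in 1 block can sit in a long exon, in a gene whose coding sequence is not interrupted, or as a narrow stretch of an ordinary exon.

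Bases of these peaks could be read where a RefSeq promoter window of GRCm38.p6 (mm10), which spans 300 bases around a transcript start, fell on a coding exon of a gene. Peaks of all 4 libraries shared 18 stretches of at least 100 bases with such windows, and 14 of these had at least 1 reading frame free of stop codons. Of those shown here, 4 were present in all 4 lists as single-block coding peaks, the first from one of the strongest regions and the others from long coding exons. The peak of Arhgef40 was coding in all lists, and its number of exon blocks changed between genotypes. They are written 5' to 3' on the listed strand in lower case, with GGAC, the usual core of the motif of the writer complex, in capitals. The stretches are chr11:82764374-82764571 (+) of Zfp830, chr1:36471860-36472019 (+) of Cnnm4, chr8:11007649-11007899 (-) of Irs2, chrX:85614179-85614478 (+) of Tab3 and chr14:51988917-51989079 (+) of Arhgef40.
Zfp830: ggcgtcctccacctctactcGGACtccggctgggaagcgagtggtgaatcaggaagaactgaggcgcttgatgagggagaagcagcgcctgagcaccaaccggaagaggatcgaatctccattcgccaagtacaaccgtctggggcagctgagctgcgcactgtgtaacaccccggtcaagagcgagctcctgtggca
Cnnm4: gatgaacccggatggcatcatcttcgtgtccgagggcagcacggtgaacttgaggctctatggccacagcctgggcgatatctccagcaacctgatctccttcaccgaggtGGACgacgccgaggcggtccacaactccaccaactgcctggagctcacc
Irs2: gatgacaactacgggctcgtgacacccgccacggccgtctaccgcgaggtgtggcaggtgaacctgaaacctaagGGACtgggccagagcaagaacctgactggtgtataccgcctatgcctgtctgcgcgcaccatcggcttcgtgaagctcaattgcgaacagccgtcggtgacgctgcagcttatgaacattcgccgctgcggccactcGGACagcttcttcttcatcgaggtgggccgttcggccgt
Tab3: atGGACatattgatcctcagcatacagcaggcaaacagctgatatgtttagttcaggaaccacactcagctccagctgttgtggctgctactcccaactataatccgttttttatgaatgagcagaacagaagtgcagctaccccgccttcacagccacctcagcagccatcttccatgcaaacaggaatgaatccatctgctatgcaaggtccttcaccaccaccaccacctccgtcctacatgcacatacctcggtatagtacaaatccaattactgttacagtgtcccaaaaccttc
Arhgef40: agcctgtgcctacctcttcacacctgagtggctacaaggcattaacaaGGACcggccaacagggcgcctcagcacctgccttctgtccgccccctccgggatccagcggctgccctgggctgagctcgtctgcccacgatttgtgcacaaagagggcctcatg

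The stretches other than that of Zfp830 were chosen after their values were seen, and 4 of the 14 open stretches, those of Hexim1, Jrkl, Trak1 and Trim25, held no GGAC and are not printed. Each of the 5 stretches held GGAC on the listed strand, Irs2 at 2 places and the others at 1. For comparison, all 32851 promoter windows were trimmed to the same lengths by keeping their upstream end. As 250 of their 300 bases lie before the transcript start, this background is mostly sequence upstream of a start. Of the trimmed windows 49.96% held GGAC at the length of Zfp830 and 43.1% at that of Cnnm4. The shares were 58.0% at the length of Irs2, 65.6% at that of Tab3 and 43.7% at that of Arhgef40. Over the 14 open stretches, 2410 bases in all, 10 held GGAC. GGAC occurred 6.22 times per 1000 bases, and its reverse complement GTCC 4.15 times. All promoter windows had 3.82 and 3.87 per 1000 bases. The stretches were richer in G and C (61.7% against 53.8%), and 5 of their 15 GGAC matches lay in 1 stretch, of Casz1. A match is not a mapped site, since a peak does not show which adenosine was methylated.

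The peaks over these stretches ranged from moderate to among the strongest. Strength is given here as the percentile of the authors' log10 p-value within the library's own list, 100 being the strongest, and fold as the authors' fold enrichment over a background the lists do not name. Over Zfp830, a zinc finger gene, strengths were 99.4 and 99.1 in wild type 1 and 2 and 99.5 and 99.1 in knockout 1 and 2. Values for the 4 libraries are given in this order from here on, and since the lists differ in length, such ranks show no change between libraries. Over Cnnm4, a gene of the family of magnesium transport mediators, they had 83.0, 86.1, 87.3 and 84.3. Irs2, an adaptor of the insulin receptor, had 60.0, 71.1, 70.3 and 42.3 over the printed stretch. Tab3, an adaptor of the kinase Tak1, had 64.8, 54.9, 72.3 and 66.6. Arhgef40, a guanine exchange factor, had a single-block coding peak in the wild-type libraries, at strengths of 83.6 and 85.5. In the knockout libraries the same place held a coding peak that ran on across a junction, at 88.4 and 86.7, so the place was listed in all 4 libraries.

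The first question was whether these peaks differed in number, share or size without Mettl5. Wild type 1 had 3345 of them, wild type 2 had 3249, knockout 1 had 3391 and knockout 2 had 3214. Both wild-type values lay between those of the knockout libraries, at means of 3297 ± 67.9 and 3302.5 ± 125 peaks (SD, n = 2 each; exact permutation test, two-sided, p = 1). Single-block peaks made up 80.6%, 81.4%, 79.3% and 81.5% of coding peaks, in the same order of libraries, and the genotype means of 81.0% ± 0.599 and 80.4% ± 1.51 differed by less than the SD of the knockout pair (SD, n = 2 each; exact permutation test, two-sided, p = 1). The median width was 361, 388, 358 and 361 bp, with means of 374.5 ± 19.1 and 359.5 ± 2.12 bp (SD, n = 2 each; exact permutation test, two-sided, p = 0.667). Wild type 2 alone set that gap, and with lists of equal length the difference was -0.5 bp.

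On 3 measures, all of width, the genotypes did not overlap. Peaks of 1000 bp or more were 13.5% and 13.9% of the single-block peaks in wild type, and 11.9% and 12.3% in the knockout. The difference of -1.63 percentage points exceeded the SDs of 0.325 and 0.287 (n = 2 each), and its p of 0.333 (exact permutation test, two-sided) is the smallest that 2 against 2 libraries can give. Total covered length pointed the same way, with 1768 and 1737 kb in wild type and 1721 and 1651 kb in the knockout (exact permutation test, two-sided, p = 0.333). The widest peak of a list behaved alike, at 6084 and 6354 bp against 5665 and 3288 bp. These were 3 of 11 measures compared between genotypes, without adjustment, and the 3 depend on each other. Where genotypes do not differ, each measure still has a probability of 0.333 of no overlap, so 3 of 11 is no excess. Among junction-crossing coding peaks the share of 1000 bp or more did not overlap either, at 39.3% and 38.1% against 37.8% and 37.5%. Among 3' UTR peaks it did, at 6.34% and 6.63% against 6.48% and 5.47%. Libraries also differed in how often a wide place was listed in pieces, and the part of this in the single-block difference was not tested.

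Single-block coding peaks were narrower and weaker than the coding peaks that crossed an exon junction, of which there were 731 to 883 per library. Their median widths of 358 to 388 bp compared with 810 to 822 bp of exon sequence, and the difference was -433.5 bp or more negative in each library (exact sign-flip permutation test over 4 libraries, two-sided, p = 0.125, the smallest it can give). Their median strength was 48.2 to 49.1 against 84.3 to 85.7, lower in 4 of 4 libraries (exact sign-flip permutation test, p = 0.125). Of the single-block peaks, 9.32% to 9.81% reached the strongest 10% of their list, against 39.6% to 41.0% of those across a junction. Peaks across a junction span several exons, so width and kind are not independent. Width also went with fold among the single-block peaks themselves, with a Spearman correlation of 0.831 to 0.855 across peaks of a library. With strength the correlation was 0.874 to 0.886. Peaks of a library share that library's depth and are not independent. The difference in strength between the kinds was not tested at equal width. Single-block coding peaks lay at places listed in all 4 libraries in 59.6%, 62.2%, 56.7% and 66.2% of cases, against 56.9%, 59.2%, 58.2% and 56.6% of junction-crossing peaks, and knockout 1 went against the others (exact sign-flip permutation test, two-sided, p = 0.25).

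Against peaks in 3' UTRs the gap in strength was small. The median strength of single-block coding peaks differed from that of 3' UTR peaks by -0.968 to 0.887 points (exact sign-flip permutation test, two-sided, p = 0.75). They reached the strongest 10% more often than 3' UTR peaks, of which 6.51% to 6.96% did so, in 4 of 4 libraries (exact sign-flip permutation test, p = 0.125). Their medians were wider by 6 to 30 bp. They lay at places listed in all 4 libraries less often than 3' UTR peaks in 4 of 4 libraries, with a mean difference of -5.88 percentage points (exact sign-flip permutation test, p = 0.125). The 10% line and the widths by kind are drawn in the plot of peak width and strength.

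**Figure D1:**
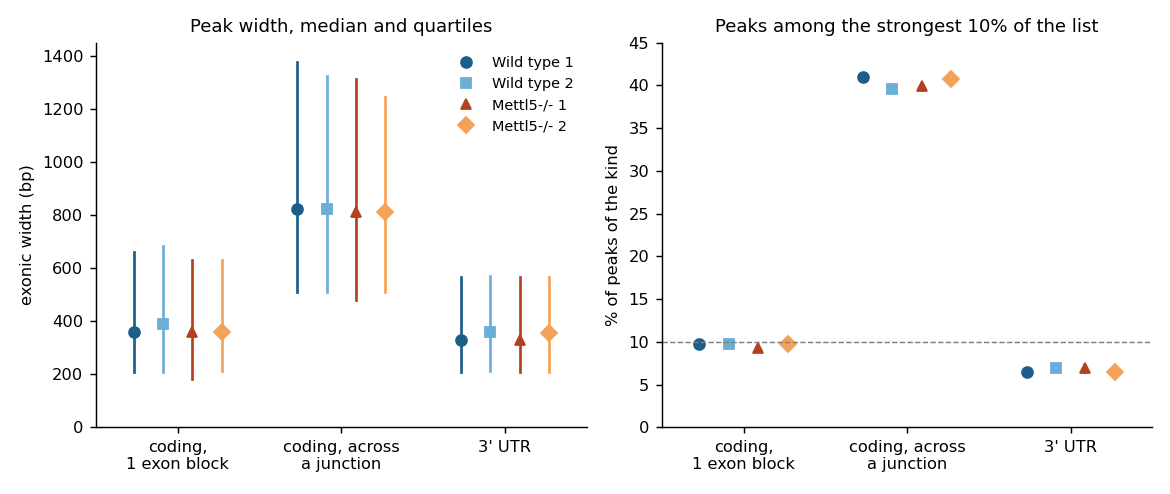
Left, exonic width in bp of single-block coding, junction-crossing coding and 3' UTR peaks in each library, with the median as a point and the quartiles as a bar. Right, the percentage of peaks of each kind among the strongest 10% of their list, with 10% as a dashed line: single-block peaks sit between 9.32% and 9.81%, junction-crossing peaks between 39.6% and 41.0%.

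Within genes the single-block coding peaks were spread out, with a lean to the 3' end. RefSeq held the gene symbol of 95.2% to 95.9% of them, and 99.7% to 99.8% of those overlapped that gene. Their median position was 72.0% to 73.1% of the way along the gene, introns included, with quartiles near 38.1% and 89.8% in wild type 1. The last 10% of the gene held 24.5% to 25.0% of the peaks and the first 10% held 9.06% to 10.3%. The positions of all coding exons were not computed, so whether the lean exceeds that of coding exons in general was not tested. Junction-crossing coding peaks had medians of 78.5% to 79.8%, and 3' UTR peaks 96.1% to 96.2%. A 3' UTR follows the coding sequence by definition, so the later position of 3' UTR peaks was fixed in advance. Of genes with a single-block coding peak, 26.1% to 30.1% also had a 3' UTR peak in the same library and 5.42% to 6.52% a junction-crossing coding peak. Over all genes with a peak in a library, which include those listed for such a peak alone, these shares were 45.8% to 46.2% and 9.20% to 9.88%. A peak on the opposite strand overlapped 2.71% to 2.90% of the single-block peaks, and for those the gene is uncertain.

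The next question was whether places with a single-block coding peak followed the genotype. A place counted as listed in a library if any listed peak, of whatever class, overlapped it. Both wild-type libraries and neither knockout library listed 125 of the 4995 regions (2.50%), where the same pattern held for 2.02% of all regions of the series. Both knockout libraries and neither wild-type library listed 114 (2.28%), where the background was 2.51%. All 4 libraries listed 2092 (41.9%), where the background was 42.5%. Each share was thus near that of regions in general. The counts of genotype-following regions rested on every library, since leaving one out leaves a genotype with 1 list. With wild type 1 left out, the counts were 378 wild-type-only and 252 knockout-only, and with wild type 2 left out 463 and 232. Leaving out knockout 1 gave 397 and 371, and leaving out knockout 2 gave 307 and 635. Another 555 regions were listed in 1 library of each genotype, 732 in 3 libraries and 1377 (27.6%) in 1 library. The 555 pool 4 possible pairs of libraries, while the 125 and the 114 come from 1 pair each, so these counts are not directly comparable.

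Part of the change from library to library was a change of class or of block number at the same place. Counting single-block coding peaks alone, 1651 regions had a peak in all 4 libraries, 154 in both wild-type libraries alone and 118 in both knockout libraries alone. Of the 2092 regions listed everywhere, 441 (21.1%) were so only when other kinds of peak counted. Where a library had no single-block coding peak in a region, it listed nothing there in 83.9% of 7688 cases, a 3' UTR peak in 6.75% and a junction-crossing coding peak in 6.19%. Narf, a nuclear prelamin A recognition factor, had such a region on chromosome 11, positions 121252692 to 121253140. There wild type 1 and 2 listed a 3' UTR peak with folds of 43.4 and 88.0. Knockout 1 and 2 listed a single-block coding peak with folds of 103 and 218. In this region, chosen after its values were seen, the class would have set the genotypes apart, while the place did not. How many regions changed class along with the genotype was not counted.

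Recurrence was low among weak peaks and high among strong ones, by an amount that differed between libraries. Of single-block peaks in the weakest 10% of a list, 11.9%, 13.8%, 4.90% and 36.5% lay at places listed in all 4 libraries, in the order wild type 1, wild type 2, knockout 1 and knockout 2. In the strongest 10% the shares were 76.2%, 81.4%, 91.1% and 72.1%. The rise did not hold to the top: in the step before it, from 80 to 90, the shares were 82.3%, 85.8%, 91.5% and 81.6%, higher than at the top in all 4 libraries. Knockout 1, with the longest list, had the lowest share among weak peaks and the highest among strong ones, and knockout 2, with the shortest list, had the reverse. Knockout 1 held 531 of the 1377 single-library regions (38.6%), and 69 of its single-block peaks missed an adjusted p-value of 0.05, against 8, 7 and 3 in the other libraries. The part of list length or depth in this was not tested. The peaks at shared places were also wider: their median width was 481 bp, and that of peaks at places of a single library 178 bp. Width and recurrence are not independent here, since any overlap counted and a wide place is more easily overlapped in every list.

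**Figure D2:**
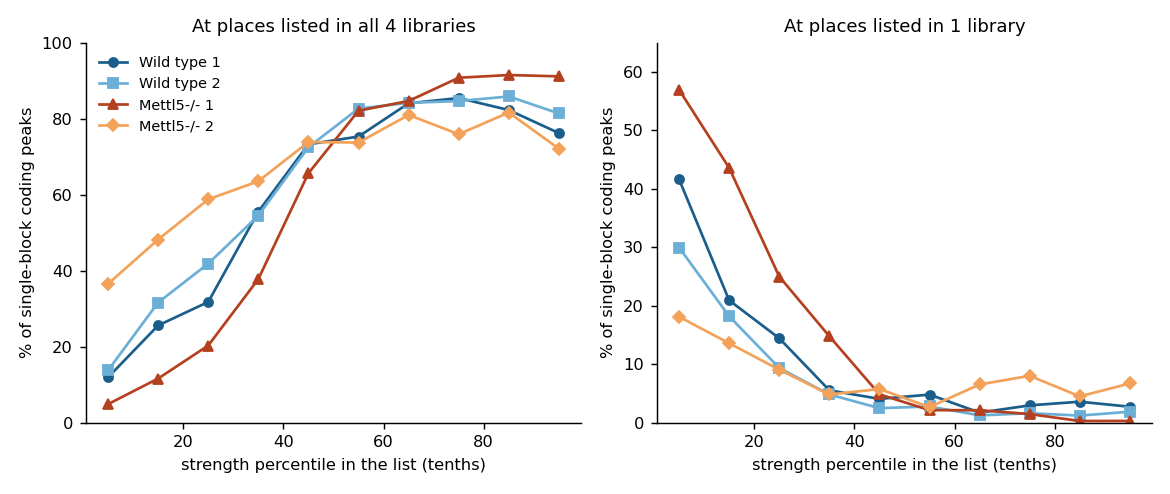
Percentage of single-block coding peaks at places listed in all 4 libraries (left) and in 1 library (right), by strength within each list in steps of 10 percentile points. The knockout 1 line runs from 4.90% to 91.1% on the left, the knockout 2 line from 36.5% to 72.1%.

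The edges of a peak varied between libraries. In 1326 regions each library had exactly 1 single-block coding peak. The 4 listed starts were identical in 10.2% of these and the 4 ends in 9.58%, and the median range over libraries was 60 bp at either edge. Wide places were cut into pieces to different degrees. Among 430 regions of 1000 bp or more with such a peak in all 4 libraries, 23.5% held several peaks in wild type 1, 23.7% in wild type 2, 19.1% in knockout 1 and 31.6% in knockout 2. Knockout 2 had the most pieces and knockout 1 the fewest, with both wild-type libraries between them.

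The 3 widest regions show this. Map1a, which encodes a microtubule-associated protein of neurons and is mostly coded by 1 long exon, had a region of 6474 bp on chromosome 2, positions 121299557 to 121306030. It was listed as 1 peak of 6084 bp in wild type 1, 1 of 6354 bp in wild type 2, and 3 peaks in each knockout library, none over 3057 bp. The gap between the main pieces lay at the same place in both knockout libraries. Rai1, a chromatin-associated regulator of transcription, had a region of 6084 bp in which wild type 1 listed 2 peaks, wild type 2 listed 3, knockout 1 listed 1 and knockout 2 listed 5. The zinc finger gene Zfp646 had a region of 5655 bp with 2, 2, 2 and 3 peaks. Of these 3 regions, only that of Map1a had its pieces divided by genotype.

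**Figure D3:**
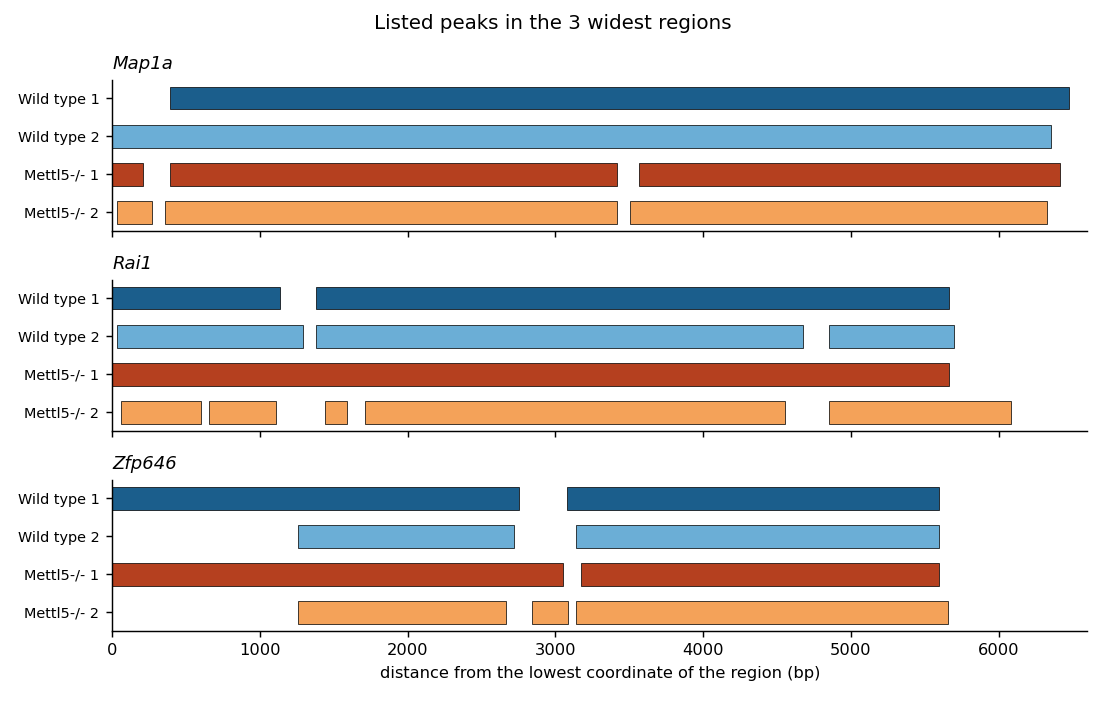
Single-block coding peaks listed in the 3 widest regions, as bars from start to end in bp from the lowest coordinate of the region, 1 row per library. Map1a is 1 bar in each wild-type library and 3 bars in each knockout library, and Rai1 is 1 bar in knockout 1 and 5 in knockout 2.

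The strongest regions with a single-block coding peak in every library lay in genes of differing function. The first, at a mean strength of 99.3, held peaks assigned to Aars, alanyl tRNA synthetase, and to its neighbour Exosc6, a subunit of the RNA exosome, so the gene is uncertain. Zfp830, the basic leucine zipper factor Crebzf, Map1a and the histone kinase gene Haspin had the same mean. At Crebzf the folds were 370, 429, 502 and 348, and at Haspin 585, 206, 314 and 192, in the order wild type 1, wild type 2, knockout 1 and knockout 2. In these 5 regions the best peak had no finite log10 p-value in any library, so they have no order among themselves. The next were Nsd1, a histone methyltransferase, Tnrc6a, which acts in silencing by microRNAs, Usp47, a deubiquitinase, Zfp292 and Hexim1, an inhibitor of the elongation factor P-TEFb, at means of 99.0 to 99.1. Nsd1 had folds of 987, 295, 945 and 574 in the 4 libraries, each relative to a background of that library.

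Most genes had 1 region, and a few giant genes had many. Of the 3648 genes, 2716 (74.5%) had 1 region and 40 had 5 or more. Ttn, which encodes the muscle protein titin, had 33 regions, 15 of them listed in all 4 libraries and 9 in 1 library. Its peaks numbered 27 and 26 in wild type and 27 and 18 in the knockout, with median folds of 18.1, 14.1, 13.6 and 30.25. Knockout 2 thus had the fewest Ttn peaks. Zfhx3, a transcription factor, had 10 regions with 7 in all libraries, and Macf1, a cytoskeletal linker, 10 with 6. Stard9, a kinesin, had 9 regions with 4 in all libraries. Ahnak, which encodes a giant scaffold protein, had 8 regions, and all 8 were listed in every library; it is named here after its values were seen.

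Among the 125 wild-type-only regions most were weak, with a median of the mean strength of 23.5, and 8 had a mean above 90. The strongest was in Scaf4, a factor of transcription termination by RNA polymerase II. Its peaks in wild type 1 and 2 had strengths of 98.6 and 98.1, and widths of 1166 and 1137 bp. Zfp24, a zinc finger factor, had 97.8 and 97.7, Casp8ap2, a protein of histone gene expression, had 95.1 and 94.5, and Pde12, a mitochondrial poly(A) exonuclease, had 94.7 and 94.7. Kif13b, a kinesin, was listed as a single-block peak in wild type 1 at 94.5 and as a junction-crossing peak in wild type 2 at 94.3. The others, Zfp260, the guanine exchange factor gene Fgd5, the actin-binding supervillin gene Svil, the polymerase-associated gene Rpap1 and the centrosomal anchor gene Akap9, had means of 82.8 to 92.8. By the rule that chose them, no knockout list had a peak in these 10 regions. Genes could have peaks elsewhere: of 122 genes with a wild-type-only region, 79 had another peak in a knockout list.

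The 114 knockout-only regions were alike in strength, with a median of the mean strength of 25.0 and 6 with a mean above 90. The first were in Pcf11, a factor of transcript cleavage and termination, and Zswim4. In both, knockout 1 listed a junction-crossing peak, at strengths of 98.4 and 97.8, and knockout 2 a single-block peak, at 97.4 and 96.8. Zbtb1, a transcription factor of lymphocyte development, had single-block peaks of 2217 and 2277 bp in knockout 1 and 2, at 97.2 and 95.9. Mtf1, which responds to metals, had 95.3 and 93.9, and Riox2, a ribosomal oxygenase, had 94.1 and 93.7. Ppargc1b, a coactivator of nuclear receptors, had 92.6 and 91.1. The splicing factor gene Wbp11, Nucks1, the ubiquitin ligase gene Mycbp2 and Smyd4 had means of 83.1 to 87.6. Nucks1 shows how p-value and fold can part: at strengths of 89.2 and 85.2 its folds were 6.41 and 16.4. Of 113 genes with a knockout-only region, 72 had another peak in a wild-type list. Presence was not tested for single regions, since each genotype has 2 lists.

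Strong places were missing from single lists as well. Of 405 regions with a mean strength above 90, 280 (69.1%) were listed in all 4 libraries, 51 in 3, 37 in 2 and 37 in 1. The regions listed in 1 or 3 libraries left 162 gaps, each by definition a library with no listed peak of any class over the region. Whether such a peak was not called or is missing from the list used here is not known, and this holds for the wild-type-only and knockout-only regions too. The 37 strong regions of a single library were 9 in wild type 1, 6 in wild type 2, 1 in knockout 1 and 21 in knockout 2. Their genes often had peaks elsewhere: for 8 of the 37, no other library listed a peak of the gene at all. Conversely, of the 51 strong regions missing from 1 library, wild type 1 lacked 8, wild type 2 lacked 9, knockout 1 lacked 26 and knockout 2 lacked 8.

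The examples that follow were chosen after their values were seen. Dbr1, the debranching enzyme of intron lariats, had a region listed at strengths of 99.4 in wild type 1, 99.1 in wild type 2 and 99.1 in knockout 2, and not in knockout 1. Tenm4, a teneurin, had 98.6, 99.1 and 99.1 in the same 3 libraries, and Champ1, a zinc finger protein of chromosome alignment, had 99.4, 98.2 and 98.0. Kat6b, a histone acetyltransferase, was missing from wild type 1 alone, and had 98.1, 99.5 and 97.9 in the others. Gzf1, a zinc finger gene, was missing from knockout 2 alone. Nup62, a nucleoporin, was listed in knockout 2 alone, at a strength of 99.1, a fold of 560 and a width of 1487 bp. Tacc2, a centrosomal protein, was also in knockout 2 alone, at 99.1 and a fold of 691. Arid2, a subunit of a chromatin remodelling complex, was in wild type 2 alone, at 99.1 and a fold of 496. These peaks were as strong within their lists as those of Scaf4 or Zbtb1, while 1 library set their pattern.

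**Figure D4:**
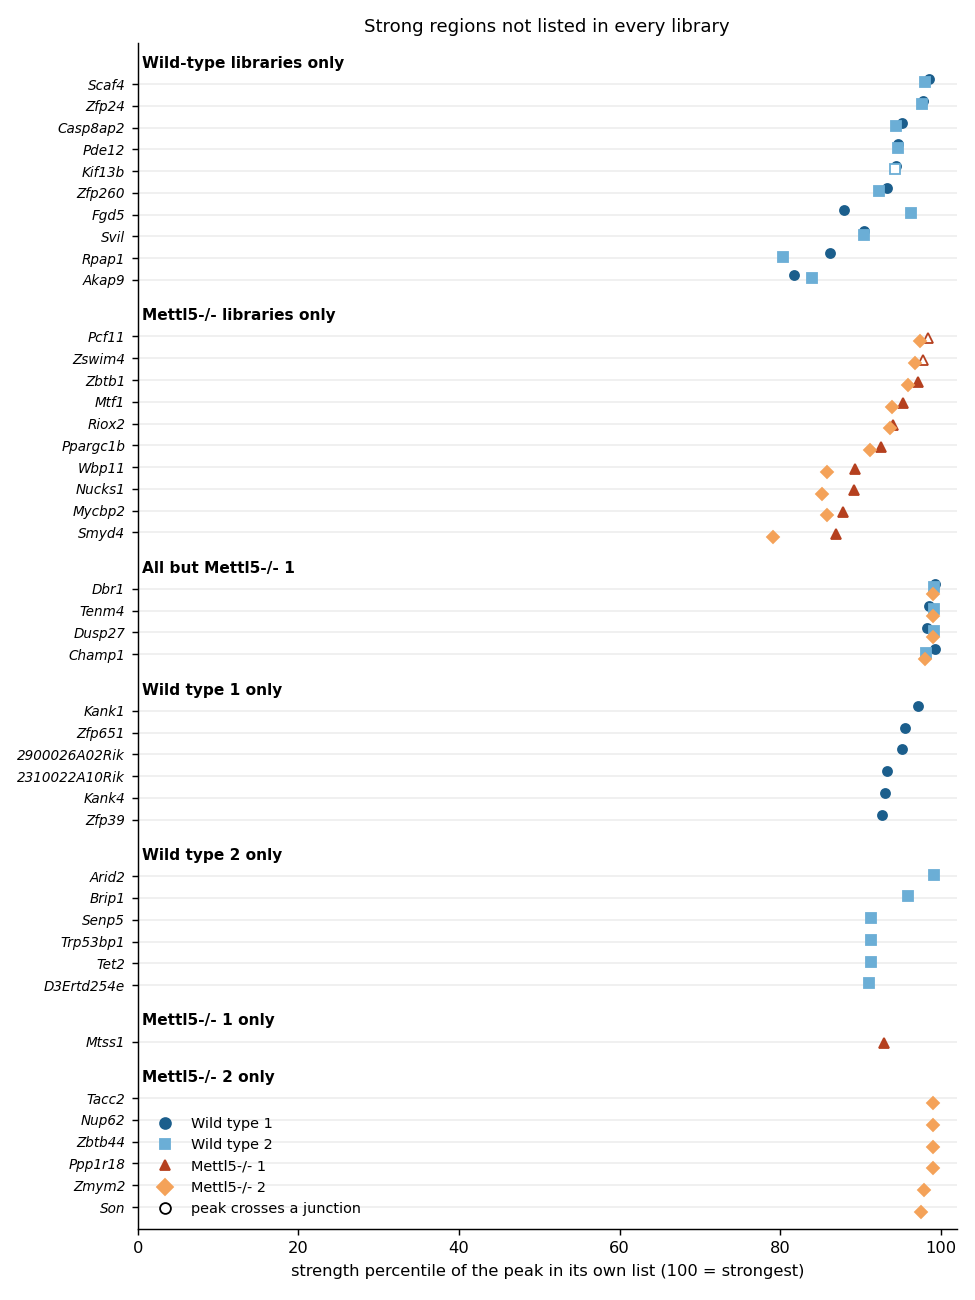
Strength percentile of the peaks of strong regions that were not listed in every library, 1 row per gene, with a point for each library that lists a peak there and an open point where that peak crosses a junction. A missing point means that no peak was listed: the wild-type-only and knockout-only rows lie beside rows of equal strength that rest on 1 library or lack 1, such as Dbr1 and Arid2.

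Gene lists were read by their counts, beside 41.9% of all 4995 regions listed in every library, a median region width of 358 bp and a median strength of 38.3. Among lists with 8 or more regions, genes with an uninterrupted coding sequence stood highest in all 3 values. The 3 values are not independent, since a wide region is more easily overlapped in every list and width went with strength. Of 22 such genes on the list, 15 had a single-block coding region, and 14 of their 18 regions (77.8%) were listed in all libraries, with a median width of 1492 bp and a median strength of 91.2. Fzd7, a Wnt receptor, had a region of 3310 bp at folds of 851 and 426 in wild type and 639 and 360 in the knockout. Ier2, an immediate early gene, had single-block coding peaks in 3 libraries, and in knockout 2 the place was classed as 3' UTR. Among genes with a very long coding exon, 43 of 65 regions (66.2%) were listed in all libraries, with Map1b, Apc and Kmt2d among the strongest. In these lists 0 regions were wild-type-only or knockout-only, beside 2.50% and 2.28% of all regions, and with 18 and 65 regions such counts say little.

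Zinc finger genes were the largest group. Of 323 genes whose names begin with Zfp and that had a peak of some kind, 208 had a single-block coding region. Of their 322 regions, 173 (53.7%) were listed in all 4 libraries, 8 were wild-type-only and 5 knockout-only, which is near the 2.50% and 2.28% of all regions. Besides Zfp830, Zfp292 and Zfp646, Zfp518a was among the strongest, at strengths of 99.4, 97.6, 98.3 and 99.1 in the order of libraries used above. The genotype-following ones ran from strong to the floor of the lists. Zfp24 and Zfp260 had mean strengths of 97.8 and 92.8, and the other wild-type-only ones, Zfp119b, Zfp68, Zfp989, Zfp334, Zfp934 and Zfp354b, had 11.6 to 50.9. The knockout-only ones were Zfp72 at 81.0, Zfp930 at 64.7, and Zfp994, Zfp882 and Zfp677 at 2.43 to 19.7. Among genes named Zbtb or Klhl, which encode proteins with a BTB domain, 29 of 50 regions (58.0%) were shared by all, Klhl34 and Zbtb40 were wild-type-only, and Klhl24 and Zbtb1 were knockout-only. Zbtb12, Zbtb38 and Zbtb22 had mean strengths of 97.2 to 98.3, each in all 4 libraries. The strongest region of these genes, of Zbtb44, was listed in knockout 2 alone, at a strength of 99.1 and a fold of 42.5. Both lists are name patterns and take in genes of differing function.

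**Figure D5:**
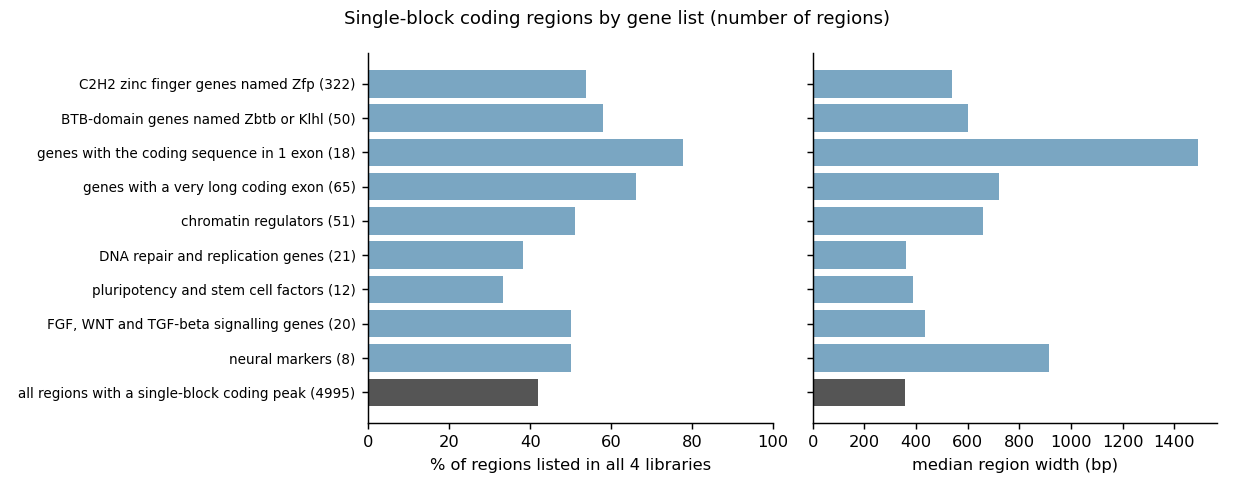
For the gene lists with 8 or more regions and for all regions (dark), the percentage of regions listed in all 4 libraries (left) and the median region width in bp (right), with the number of regions in parentheses. Genes with the coding sequence in 1 exon reach 77.8% and 1492 bp, and all regions 41.9% and 358 bp.

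Chromatin regulators had 51 single-block regions in 24 of 38 listed genes, and 26 regions (51.0%) were in all libraries. Tet3, an oxidase of 5-methylcytosine, had strengths of 96.3, 96.7, 97.5 and 96.4. The strongest region of Kmt2a, a histone methyltransferase, on chromosome 9, positions 44847433 to 44849202, was listed in every library but knockout 1, while other regions of the gene were listed in all 4. Chd4 and Kmt2c each had a knockout-only region, with folds of 1.87 and 1.37 and a mean strength of 51.7 for Chd4, and folds of 9.61 and 8.96 and a mean strength of 9.17 for Kmt2c. DNA repair and replication genes had 21 regions in 9 of 24 listed genes, with 8 (38.1%) in all libraries and none that followed the genotype. Of all regions 2.50% were wild-type-only and 2.28% knockout-only, so such counts among 51 and 21 regions say little. Brca1 had a region of 3114 bp at strengths of 93.8, 93.2, 94.2 and 91.7, in which 1 library of each genotype listed a junction-crossing peak. Blm, a helicase, was in all 4 lists too, at a mean of 86.0. Mdc1, a scaffold of the DNA damage response, was missing from wild type 1, and a region of Trp53bp1 was listed in wild type 2 alone.

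Of 24 listed m6A writers, erasers and readers, 14 had a peak of some kind and 3 a single-block coding region. Rbm15b, an adaptor of the writer complex, had a region of 2659 bp in all lists, with folds of 1150, 614, 734 and 555. Pcif1, which methylates the cap-adjacent adenosine, had a region listed in all 4 libraries, as a single-block coding peak in knockout 2 only, and Virma, a scaffold of the writer complex, was in all but knockout 1. Mettl5 itself had no single-block coding peak, wild type included, so these peaks could not check the genotype labels. FGF, WNT and TGF-beta signalling genes had 20 regions in 11 of 32 genes, 10 of them in all libraries. Besides Fzd7 and Apc, the strongest were regions of Axin2, a Wnt target and inhibitor, and Bmpr2, a BMP receptor, each listed in knockout 2 alone, at folds of 1000 and 261. Among Fbxw7 and the substrates of its ubiquitin ligase, Jun had strengths of 94.1, 94.4, 94.4 and 92.7 and Notch1 had 47.8, 50.6, 39.9 and 47.4. Fbxw7 and Myc had no region of this kind.

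Of 30 pluripotency and stem cell factors, 8 had a single-block coding region, and 4 of their 12 regions (33.3%) were in all libraries. Esrrb, a nuclear receptor of naive pluripotency, had a region on chromosome 12, positions 86514289 to 86514738, with strengths of 93.9, 99.1, 95.6 and 99.1 and folds of 130, 104, 84.1 and 50.3. Utf1, a chromatin factor of stem cells, had folds of 28.0, 9.69, 13.0 and 4.23. Both were listed everywhere, as was a region of Tbx3, a T-box factor, at a mean strength of 87.3. Pou5f1 had 2 regions, both of low fold. One was listed in the 3 libraries other than wild type 1, at folds of 2.60, 4.73 and 1.36 and strengths of 38.5, 67.3 and 37.4, and the other in wild type 1 alone, at a fold of 7.59. Sall1, a zinc finger factor, was in wild type 2 and knockout 2. Nr0b1, an orphan nuclear receptor, had a wild-type-only region at folds of 5.78 and 13.3 and a mean strength of 17.6. A second region of Tbx3 was knockout-only: knockout 1 listed a junction-crossing peak there at a strength of 98.1, and knockout 2 a peak of 271 bp at 29.2. Beside 2.50% wild-type-only and 2.28% knockout-only of all regions, 1 of each among 12 regions says little. Sox2, Nanog and Klf4 had no region of this kind.

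Markers of other cells were read beside all genes, of which 3648 of 9949 with a peak of any kind had a single-block coding region. Of 18 neural markers 9 had a peak of some kind and 6 had a region, and Sox11, Nes and Sox1 were listed in all libraries. Sox11 had strengths of 94.4, 94.8, 94.8 and 92.6, and the intermediate filament gene Nes 92.8, 93.0, 92.5 and 92.3. Tubb3, a neuronal tubulin, was in knockout 2 alone, at 78.7. Of 16 mesoderm and endoderm markers 7 had a peak of some kind. Foxa2 and Mixl1 had a region, both in all libraries, at mean strengths of 56.2 and 32.5. Of 12 feeder fibroblast markers 3 had a peak of some kind, and Fn1 had 1 region, at folds of 4.11, 3.48, 10.6 and 2.41. On the list of primitive endoderm and trophoblast genes, 5 of 13 members had a peak of some kind. Sox7 had a region listed in all libraries and Lamb1 one in wild type 1 alone. These lists held 8, 2, 1 and 3 regions, too few to compare with the shares of all regions that followed the genotype. A peak list does not give RNA levels, so the share of such cells was not tested.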

How the data were processed

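There was 1 list for each library, and the authors thus called peaks sample by sample. Per the file headers, each deposited peak has exon blocks, a gene, a class, a p-value, log10 values of the p-value and of its adjusted form (used as a score), and a fold enrichment, a ratio to an unnamed background. HISAT2, HOMER and the mm10 build are named in the submitters' processing notes without a role. Caller, settings and input were not given in the sources used here, and read depth is unknown. The labels' protocols mention embryoid bodies and neural differentiation, while the labels name embryonic stem cells.

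The authors' values per peak served for description and ranking inside a list, and no level was compared across lists. Single-block coding peaks off the reference chromosomes (1 and 1 in wild type, 1 and 0 in the knockout) were left out. Peaks were joined on either strand where blocks overlapped by 1 bp or more. Genotypes were compared by exact permutation over 2 against 2 libraries, kinds of peak by exact sign flips over 4 libraries, whose smallest p are 0.333 and 0.125. Members and gene lists were chosen with earlier results of these data known. Named were Mettl5, Fbxw7, Myc and core pluripotency factors, the 10 strongest regions in all libraries and in each genotype-following direction, the 5 genes with the most regions, the 3 widest regions, up to 4 members of each gene list and every list member that followed the genotype. Coordinates are mm10, 1-based. Gene positions and sequences are from RefSeq tables of GRCm38.p6, sequences without chromosome 18. A gene that this rule names is not reported here. Counting of regions was tested on simulated data. Python 3.11.15, numpy 2.4.6, pandas 2.3.3 and matplotlib 3.10.9 were used. Alternatives were an overlap of 50% of the shorter member, an adjusted p-value under 0.05, lists of equal length, the stronger 50% of each list, the same strand, strength by fold, and leaving out each library.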

Additional observations from a re-analysis of the deposited data

How the results depend on the processing

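With the stronger 50% of each list, 50 regions were wild-type-only, 40 knockout-only and 1171 in all 4 libraries, where shorter lists leave fewer regions. With 1 library left out at a time there were 307 to 463 wild-type-only and 232 to 635 knockout-only regions, and 2212 to 2300 in every library left. Strength by fold narrowed the gap between single-block and junction-crossing coding peaks from -36.1 to -28.4 percentile points, in the same direction. The presence counts stayed within 1.5 times of those reported with single-block coding peaks only, a 50% overlap, equal list lengths, an adjusted p-value under 0.05, the same strand and peaks under 1000 bp. The genotype differences in peak number and coding share, which were within the spread between libraries, ranged from -83 to 94 peaks and from -1.69 to 0.445 percentage points without single libraries. No paired analysis was possible because wild-type titles hold no replicate number and no model was fitted. The motif alternatives (GGACT, the central bases of each region) were not run over regions, since they need a genome. Read depth is unknown, so a peak missing from a list cannot be read as an unmethylated site.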

Other observations

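Of the 6 single-block coding regions of the mitochondrial genome, the first described here joined a high rank by p-value to a low fold. This region, with peaks of mt-Nd5 and mt-Nd6, subunits of respiratory complex I coded on opposite strands, was listed in all 4 libraries. Its best peaks had log10 p-values of -651 in wild type 1, -1080 in wild type 2, -4910 in knockout 1 and -1350 in knockout 2, at folds of 5.49, 4.41, 15.4 and 5.25. These best peaks were assigned to mt-Nd5 in all 4 libraries. Since the region holds peaks of 2 genes, the gene of the region as a whole is uncertain. The region was chosen after its values were seen, as was another region of mt-Nd5. That one had strengths of 67.5 in wild type 1, 89.4 in knockout 1 and 64.9 in knockout 2, and was not listed in wild type 2.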
